A study of Mus musculus with 62 samples.

Results

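Levels of H3K4me2 (dimethylated lysine 4 of histone H3) in soleus (Sol) and quadriceps (Quad) muscle were compared at regions that the authors had identified separately in the 2 muscles. A Quad region and a Sol region were paired when each covered at least 50% of the other, and each region entered 1 pair at most. This gave 24152 matched regions, which were 55.5% of the 43525 Quad regions and 67.7% of the 35696 Sol regions. Their nearest genes numbered 14642. The study examined the epigenome of mouse skeletal muscle by muscle type, by voluntary exercise and by muscle expression of PGC1a, with ChIP-seq of histone marks, ChIP-seq of MED1 and ATAC-seq among its 62 samples. The comparison rested on 4 of these, 2 Sol and 2 Quad libraries, all from wild-type, sedentary C57BL/6 mice and all made with the same antibody to H3K4me2. No age is given in the labels. By the study's methods each Quad sample was 1 quadriceps of 1 animal, whereas Sol, EDL (extensor digitorum longus) and Dia (diaphragm) samples were pools of muscles from several animals, so that pooling and muscle cannot be told apart. Whole muscle was used, so that fewer nuclei of a cell type and less mark per nucleus cannot be told apart either. The Quad libraries held 22731207 and 19660934 tags and the Sol libraries 16849204 and 22382835.

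H3K4me2 marks promoters and enhancers that are active or poised for activity, and it is therefore used to map the regulatory regions that a tissue has available. Mouse soleus is a postural muscle rich in slow, oxidative fibers that use the slow myosin heavy chain MYH7 and the oxidative fast isoform MYH2, whereas most of the quadriceps consists of fast glycolytic fibers that use MYH4. Each fiber type carries its own set of troponins, light chains and calcium pumps. Transcription factors such as MEF2C, large MAF proteins, NFATC1, SOX6 and TBX15 are known for setting fiber type, and the nuclear receptors of the ERR and PPAR families with their coactivator PGC1a are known for setting oxidative capacity.

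The level of a region was taken as the deposited log2 tag value minus log2 of the region's width in kb, with each library centred so that its median matched region was 0. A region was called higher or lower in Sol when the group means differed by more than 1 on this log2 scale, that is 2-fold, and both Sol libraries lay on the same side of both Quad libraries. No p was attached to a call, because the values of the 2 muscles were normalized in separate lists and because 2 libraries against 2 cannot go below an exact two-sided permutation p of 0.33. To show what the regions consist of, the central 200 bases of the 3 regions with the largest difference in each direction are printed from the forward strand of the mouse genome (GRCm38.p6, the mm10 build of the files). Capitals mark a match to one of the transcription factor words described further on. The regions higher in Sol were an intergenic one at chr7:81726428-81726627 before Homer2, one at chr3:46490238-46490437 before Pabpc4l and one at chr10:73099278-73099477 before the unnamed transcript A330049N07Rik.
Homer2: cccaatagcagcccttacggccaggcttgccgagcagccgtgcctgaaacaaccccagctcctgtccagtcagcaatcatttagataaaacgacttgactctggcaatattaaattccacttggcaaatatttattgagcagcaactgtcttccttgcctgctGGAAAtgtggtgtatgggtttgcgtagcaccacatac
Pabpc4l: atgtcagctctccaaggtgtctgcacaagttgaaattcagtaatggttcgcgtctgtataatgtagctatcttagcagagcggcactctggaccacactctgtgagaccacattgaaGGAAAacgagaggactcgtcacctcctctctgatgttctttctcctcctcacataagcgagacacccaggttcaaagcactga
A330049N07Rik: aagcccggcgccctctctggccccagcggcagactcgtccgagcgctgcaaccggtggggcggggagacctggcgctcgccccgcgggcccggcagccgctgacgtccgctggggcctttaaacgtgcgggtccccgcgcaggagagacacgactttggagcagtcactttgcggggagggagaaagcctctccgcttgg
The regions lower in Sol were an intergenic one at chr5:118789800-118789999 near 4930413E15Rik, one at chr7:127908909-127909108 in a 3' UTR nearest to the start of Kat8 and one at chr15:80759881-80760080 in an intron nearest to Tnrc6b.
4930413E15Rik: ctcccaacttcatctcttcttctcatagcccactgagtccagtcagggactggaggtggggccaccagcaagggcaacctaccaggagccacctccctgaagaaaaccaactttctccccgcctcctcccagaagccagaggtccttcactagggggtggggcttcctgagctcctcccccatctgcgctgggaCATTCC
Kat8: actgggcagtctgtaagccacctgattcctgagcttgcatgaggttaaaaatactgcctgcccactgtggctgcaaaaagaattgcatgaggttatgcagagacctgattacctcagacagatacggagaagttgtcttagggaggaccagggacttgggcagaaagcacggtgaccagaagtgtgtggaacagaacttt
Tnrc6b: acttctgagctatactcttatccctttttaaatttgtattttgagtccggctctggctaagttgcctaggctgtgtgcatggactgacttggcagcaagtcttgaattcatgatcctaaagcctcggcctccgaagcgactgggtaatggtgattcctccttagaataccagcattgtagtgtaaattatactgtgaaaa
The window of A330049N07Rik was the richest in G and C among the 6, at 71.2% over 500 bases, and that of Tnrc6b the poorest, at 37.2%.

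A second set is shown because the word bound by MEF2 factors was the one whose share differed most between regions called lower and all matched regions. It lies, in capitals, in 50-base stretches of called regions in an intron of Sgcd (chr11:47250660-47250709), near Mir6923 between the myosin genes Myh3 and Myh2 (chr11:67105587-67105636), in an intron of Hdac9 (chr12:34517213-34517262) and in an intron of Gys1 (chr7:45445270-45445319), on the forward strand of the same build. All of them were lower in Sol.
Sgcd: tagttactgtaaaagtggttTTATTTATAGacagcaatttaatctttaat
Mir6923: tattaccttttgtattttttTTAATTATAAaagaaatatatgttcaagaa
Hdac9: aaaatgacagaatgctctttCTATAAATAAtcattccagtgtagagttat
Gys1: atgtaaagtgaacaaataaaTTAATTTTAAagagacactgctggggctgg

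Across the matched regions the H3K4me2 landscapes of Sol and Quad were alike in rank. Spearman's rho of the group means was 0.894 over 24152 regions, and it was 0.973 between the Sol replicates and 0.977 between the Quad replicates. Regions share libraries and are not independent, so these values are descriptions. The median absolute difference between Sol and Quad was 0.24 on the log2 scale, against 0.11 between the replicates of either muscle, and only 10 regions differed by more than 2-fold between the Sol replicates and 9 between the Quad replicates. The replicates of the 2 muscles did not overlap at 17181 regions, 71.1% of all, most of which differed by less than 2-fold. Differences of more than 2-fold were found at 445 regions, 1.84% of all. In 222 regions (0.919%) the level was higher in Sol and in 223 (0.923%) it was lower.

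**Figure D1:**
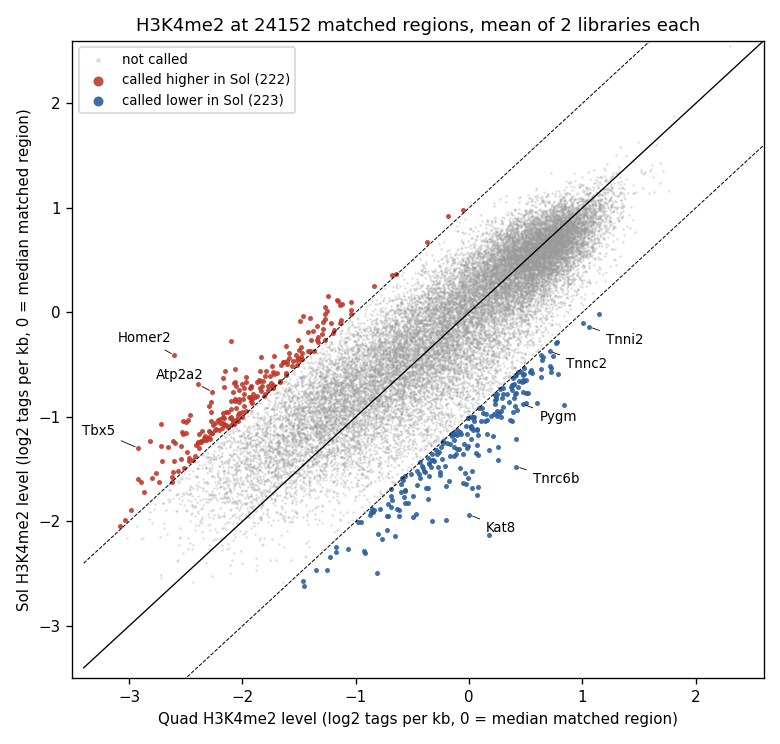
H3K4me2 level of each of 24152 matched regions in Quad (x axis) and Sol (y axis), each the mean of 2 libraries in log2 tags per kb with 0 at the median matched region. The solid line marks equal levels and the dashed lines 2-fold, and the 222 regions called higher in Sol (red) lie mainly at low levels whereas the 223 called lower (blue) reach further up.

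The calls fell mostly on weakly marked regions. When the matched regions were divided into 4 bins of equal size by their mean level, the 222 higher calls numbered 195, 24, 3 and 0 from the lowest bin to the highest, and the 223 lower calls numbered 96, 108, 18 and 1. The median difference of all regions likewise went from 0.25 in the lowest bin through 0.05 and 0.01 to -0.05 in the highest. Regions called higher had a median level of -2.0 in Quad and -0.78 in Sol, and thus were weak in Quad. Regions called lower had a median level of -0.01 in Quad, close to the median of all regions, and of -1.24 in Sol. At the threshold itself, regions near Zdhhc20 (1.0004) and Fasl (1.0009) fell just inside and Cyp4a12a (0.9999) and Faxc (0.9991) just outside on the higher side, while Gm7008 (-1.0005) and Eif3h (-1.0006) fell just inside and Asb18 (-0.9997) and Rab10 (-0.994) just outside on the lower side. No region passed 2-fold by its means and then failed for overlapping libraries.

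A pair of measurements bears on how far these calls can be read as a difference between muscles. First, the series holds 2 further sets of wild-type, sedentary quadriceps, called Sed and Wt after their labels, and these too differed from Quad by the same rule. Sed differed from Quad at 188 of 23965 matched regions (0.784%) and the libraries labelled Wt at 666 of 25720 (2.59%), which is more than the 1.84% for Sol. The Wt libraries were shallower than those of Quad, Sol and Sed, at 13722774 and 13259102 tags, with 7721156 in their input. By the study's methods, wild-type littermates were used beside the mice with muscle expression of PGC1a. The part of depth and of litter in the Wt count was not tested. With Sed in place of Quad, 17 regions were called higher and 132 lower in Sol, and with Wt 308 and 76. Of the regions called against Quad, few were called again: 4 of the 98 higher and 29 of the 127 lower ones still matched with Sed, and 16 of 146 and 17 of 148 with Wt. Second, the input libraries, sheared chromatin without antibody, moved with the calls. The Sol input (18901362 tags) minus the mean of the 2 Quad inputs (12578289 and 15825420 tags), treated in the same way, had a median of 0.94 at regions called higher, where 219 of 222 were above 0, and of -0.86 at regions called lower, where 221 of 223 were below 0, against 0.02 at all regions. The input difference was under 0.5 in size at 34 of the higher calls, 33 of the lower calls and 74.9% of all regions. Input and mark were also correlated across regions, with a rho of 0.834 in Quad and 0.736 in Sol. For each region, however, mark and input had the same width subtracted and were normalized together within their list. They are thus not independent, and some of their movement together is built in. How much was not tested. After subtraction of the input level from the mark, 157 regions were called higher and 71 lower, and these included only 9 and 7 of the original calls. The part of the input and of the quadriceps set in each call was not tested. For the main regions described below, the difference after input subtraction and the difference with Sed or Wt in place of Quad, where the region was matched in those sets, are given.

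Called regions differed from the rest in position. Of the 222 higher regions, 27 (12.2%, 95% Wilson interval 8.49 to 17.1) were at promoters as the authors' annotation gives them, and of the 223 lower regions only 2 (0.897%, 0.246 to 3.21), against 15.9% of all matched regions. The promoters called lower were those of Spns2 and Rapgef2. Intergenic regions made up 34.7% of the higher and 33.6% of the lower calls and 24.0% of all. The median distance from the nearest transcription start site was 11.7 kb for higher calls, 27.9 kb for lower calls and 1.99 kb for all regions. Higher calls were also narrow, with a median width of 959 bp in Quad, as compared with 1399 bp for lower calls and 1982 bp for all. Thus regions with less mark in Sol were hardly ever at promoters. Promoters are also more frequent among strongly marked regions, from 7.27% in the lowest bin of levels to 30.8% in the highest.

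The 10 regions furthest higher in Sol had levels of -3.16 to -1.76 in the Quad libraries and of -1.36 to -0.17 in the Sol libraries. The largest difference was found before Homer2, which encodes a scaffold protein of postsynaptic and calcium-signaling complexes. Its region (chr7:81726202-81726855, intergenic) had levels of -2.63 and -2.58 in Quad and of -0.36 and -0.46 in Sol, a difference of 2.19 ± 0.05 (SE, n = 2 libraries each) or 4.57-fold. The region was chosen for its gap between the Sol and Quad libraries, and the replicates lay close together. Pabpc4l, a poly(A)-binding protein gene, followed with -2.20 and -2.0 in Quad and -0.17 and -0.37 in Sol (1.83 ± 0.14), but after subtraction of the input its difference was -0.43. An intronic region of Tbx5, a T-box factor known for forelimb and heart development, had -2.74 and -3.09 in Quad and -1.24 and -1.36 in Sol (1.62 ± 0.19), so that it was weak in both muscles. The region before Atp2a2, the gene of the slow-fiber and cardiac calcium pump SERCA2, had -2.04 and -2.49 in Quad and -0.81 and -0.71 in Sol (1.503 ± 0.23). This region also had the largest input difference among the slow-fiber genes, at 1.88, and its sign turned to -0.38 after input subtraction. The other members of this group lay near A330049N07Rik (1.70), Atg4c, an autophagy protease (1.66), Fam3c, a secreted protein (1.60), the promoter of Dsg2, a desmosomal cadherin (1.58), Nrn1, a neurite growth factor (1.55), and 9430019J16Rik (1.52). Dsg2 was at -0.025 after input subtraction. By the same subtraction Homer2 came to 0.43, Tbx5 to 0.43 and A330049N07Rik to 0.28, so that none of these was past 2-fold. Most of the group had no matched region in Sed or Wt, but A330049N07Rik was at 0.73 with Sed and 0.42 with Wt, and Atg4c at 0.88 with Wt.

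The 10 regions furthest lower in Sol were around the median or above it in Quad, with the exception of Mir1936. An intergenic region near 4930413E15Rik had levels of 0.29 and 0.06 in Quad and of -2.26 and -2.01 in Sol, a difference of -2.31 ± 0.17 (SE, n = 2 libraries each). Here too the gap between the groups follows from how the regions were chosen. The region nearest to Kat8, a histone acetyltransferase gene, had 0.01 and -0.00 in Quad and -2.12 and -1.76 in Sol (-1.94 ± 0.18), and the one nearest to Tnrc6b, a microRNA silencing factor gene, 0.57 and 0.26 in Quad and -1.5 and -1.45 in Sol (-1.89 ± 0.16). An intronic region of Slc8a1, the sodium-calcium exchanger of the plasma membrane, had 0.12 and 0.02 in Quad and -1.85 and -1.64 in Sol (-1.81 ± 0.11). Replicates within each of these regions differed far less than the groups did, but the regions were chosen for a large gap between groups. The remaining regions lay near Gsg1l (-1.78), Mir7243 (-1.75), Scml4 (-1.72), Nek5 (-1.70), Mir1936 (-1.68) and Sh2d4a (-1.67). Mir1936 was low in both muscles (-0.81 and -0.81 in Quad, -2.51 and -2.48 in Sol) and came to 0.095 after input subtraction. Slc8a1 held up furthest, at -1.12 after input subtraction, -1.46 with Sed and -0.91 with Wt in place of Quad. Tnrc6b was at -0.91, -1.49 and -0.67 in these settings. Kat8 came to -0.0996 after input subtraction but to -1.52 with Sed, and 4930413E15Rik to -0.37 after input subtraction and -1.37 with Wt.

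**Figure D2:**
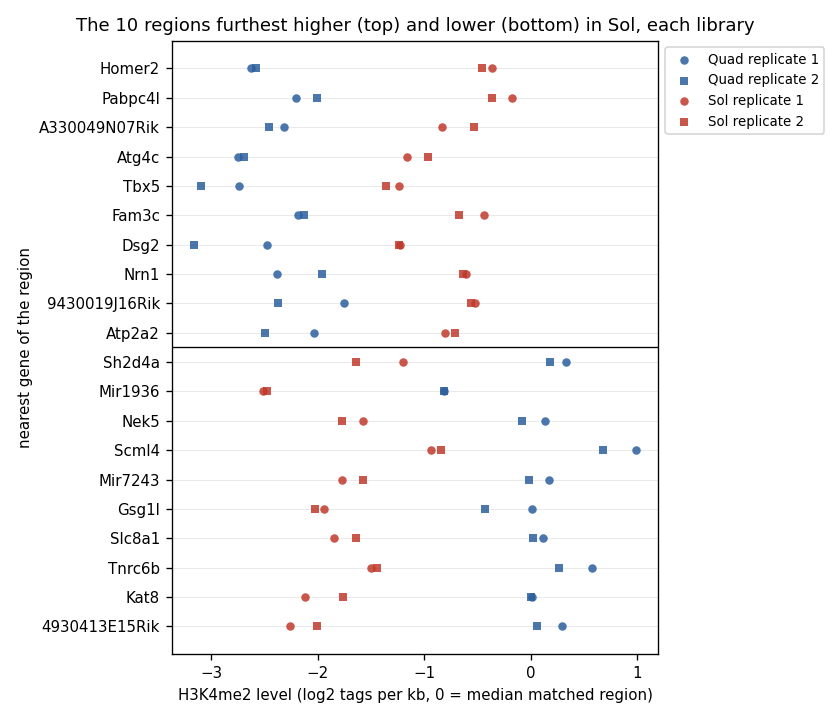
H3K4me2 level (x axis, log2 tags per kb, 0 at the median matched region) in each of the 2 Quad (blue) and 2 Sol (red) libraries at the 10 regions furthest higher and the 10 furthest lower in Sol, named by nearest gene. The call rule keeps the Quad and Sol libraries apart in every line. The upper regions lie between -3.16 and -1.76 in Quad whereas most lower regions sit near 0 in Quad.

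Matched regions of the fast contractile genes had less H3K4me2 in Sol than in Quad. All 12 matched regions of the 10 fast genes that had one were lower in Sol. Their median difference was -0.88, with a range of -1.20 to -0.19, beside a median of 0.04 for all regions. Of the 12 regions 4 passed the call rule (33.3%). Over all matched regions 0.923% were called lower and 0.919% higher, and these shares are the background for every list below. The region inside Tnni2, the fast troponin I gene, had 1.13 and 0.99 in Quad and -0.16 and -0.11 in Sol (-1.20 ± 0.07, n = 2 libraries each). It was among the few called regions that were strong in Quad. After input subtraction it was at -1.01, but with Sed and Wt in place of Quad it was at -0.38 and -0.58, short of the threshold. An intergenic region near Tpm1, the alpha-tropomyosin gene, had 0.34 and 0.04 in Quad and -0.87 and -1.10 in Sol (-1.18 ± 0.19). Tnnc2, fast troponin C, had 0.79 and 0.63 in Quad and -0.30 and -0.45 in Sol (-1.08 ± 0.11), and Tnnt3, fast troponin T, 0.52 and 0.45 in Quad and -0.69 and -0.50 in Sol (-1.08 ± 0.10). Thus each of the 3 fast troponin genes held a called region. Tnnt3 was at -0.43 after input subtraction, -0.55 with Sed and -0.56 with Wt, Tnnc2 at -0.24 after input subtraction and -0.60 with Sed, and Tpm1 at -0.13 after input subtraction and -0.066 with Wt. Just short of the threshold, Myl1, a fast essential light chain, was at -0.89 and Atp2a1, the fast-fiber calcium pump, at -0.87. Mylpf, the fast regulatory light chain, was at -0.41 and Myoz1, a Z-disc protein, at -0.19. The median of this list kept its sign under other choices: it was -0.55 with Sed and -0.27 with Wt in place of Quad, -0.31 with EDL, a fast muscle that was also pooled, in place of Quad, and -0.23 after input subtraction, where again 12 of 12 regions were below 0. The number of called regions fell from 4 to 2 with Sed, 1 with Wt, 1 after input subtraction and 0 with EDL. Regions above 0 were 3 of 15 with Sed, 2 of 17 with Wt and 1 of 11 with EDL. Between Dia and EDL, which share no library with Sol and Quad, the direction was absent. There the median of Dia minus EDL was 0.05 over 8 regions of the list, beside -0.02 over all regions. The summed level of the list, with the median region as 1, was 19.98 and 18.7 in Quad and 11.8 and 11.6 in Sol.

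Slow contractile genes moved less, in the opposite direction. Of their 15 matched regions 11 were above 0, the median was 0.33, and only the Atp2a2 region was called. Tnni1, slow troponin I, had -0.37 and -0.33 in Quad and 0.11 and 0.14 in Sol (0.48 ± 0.03, n = 2 libraries each), and the groups did not overlap, but after input subtraction it was at -0.12. Casq2, the cardiac and slow calsequestrin, was at 0.40 and the 3 regions of Mybpc1, slow myosin-binding protein C, were at 0.33 to 0.39. Myoz2, by contrast, was at -0.49. Myh7b, a slow myosin gene related to Myh7, had -0.71 and -0.75 in Quad and -0.48 and -0.43 in Sol, a difference of 0.28. After input subtraction the median of the list was -0.12, so that its sign rested on the treatment of the input, and it was 0.03 with Sed and 0.41 with Wt in place of Quad. The control gene Ngdn, which sits close to the cardiac myosin genes and is expressed widely, had 0.81 and 0.74 in Quad and 0.98 and 0.82 in Sol, a difference of 0.13.

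Several contractile genes had no matched region, either because a region was found in 1 list only or because the regions of the 2 lists differed too much in extent. Myh4, the myosin of fast glycolytic fibers, was covered by 1 Quad region of 15.7 kb (chr11:67229069-67244721) and by none in Sol. Myh7, the slow myosin, conversely had 4 regions with a total of 11.2 kb in Sol and none in Quad. Myh2 had 4 Quad regions of 2.54 kb in all and 9.11 kb in Sol, where 1 region alone spanned 8.34 kb, and Myh1 had 0.5 kb in Quad and 2.16 kb in Sol. The same held for Actn3, the fast alpha-actinin (6.16 kb in Quad and none in Sol), Pvalb, the fast-fiber calcium buffer parvalbumin (13.2 kb and 1.84 kb), Tnnt1, slow troponin T (1.51 kb and 7.60 kb), and Csrp3, a muscle LIM protein (1.44 kb and 8.68 kb). Tnnc1 and Myl3, slow troponin C and a slow light chain, were found in the Sol list only. Summed over all their regions, fast contractile genes were covered by 187 kb in Quad and 107 kb in Sol, with 14 of 16 genes longer in Quad, and slow contractile genes by 92.2 kb and 172 kb, with 15 of 19 longer in Sol. Shorter cover in Sol was not particular to fast contractile genes. Excitation and calcium-release genes had 291 kb in Quad and 172 kb in Sol, with 16 of 19 longer in Quad. Glycolysis and glycogen genes had 308 kb and 203 kb, with 22 of 25 longer in Quad. Structural genes shared by all fibers had 304 kb and 248 kb, with 17 of 20 longer in Quad. All regions of the Quad and Sol lists came to 80720 kb in Quad and 73689 kb in Sol. Covered length depends on what was called in each list. A matched-region comparison thus leaves out the myosin genes themselves. In the same cluster, however, 2 matched regions upstream of Myh2, singled out here after their values were seen, were called lower in Sol. One, near Mir6923 (chr11:67104074-67106756), was centred 65.4 kb before the Myh2 start and had 0.46 and 0.38 in Quad and -1.08 and -0.79 in Sol (-1.36 ± 0.15). The other, at 2310065F04Rik (chr11:67118535-67120798), was centred 51.4 kb before it and had 0.60 and 0.41 in Quad and -0.91 and -0.63 in Sol (-1.28 ± 0.17). In EDL, a fast muscle, they were at -0.07 and -0.29 and at -0.33 and -0.38, between Quad and Sol on the scale given below for other lists. In Dia, a more oxidative muscle than EDL, the region of 2310065F04Rik was at -0.33 and -0.28, much as in EDL. The Mir6923 region had no match in Dia. In quadriceps labelled Wt, however, the Mir6923 region was at -0.94 and -0.96, the level of Sol, and in Sed the region of 2310065F04Rik was at -0.53 and -0.059. Their input differences were -0.92 and -0.95.

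Among regulators of fiber type, 95 matched regions near 25 genes had a median of -0.22. Of these 64 were below 0, beside 11066 of 24152 over all regions. The calls were 4 lower (4.21%) and 1 higher (1.05%), beside 0.923% and 0.919% of all regions. Maf (-1.26) and Mafa (-1.12), large MAF factors known for the MYH4 program, each had a distal region lower in Sol. With Wt in place of Quad Maf was at -0.056, and after input subtraction it was at -0.39. Mafa was at -0.64 with Sed, -0.87 with Wt and -0.0046 after input subtraction. Mef2c, a MEF2 factor, had an intronic region with 1.21 and 1.09 in Quad and -0.24 and 0.21 in Sol (-1.16 ± 0.23). It was at -0.074 with Sed, -0.27 with Wt and -0.36 after input subtraction, and the call thus held for none of these. Hdac9, a repressor of MEF2 activity, had an intronic region at -1.08, yet 2 other regions of the same gene were at 0.82 and 0.88. Directions thus differed within Hdac9, and likewise within Sox6, a repressor of slow-fiber genes, whose 7 regions ran from -0.92 to 0.64 with no call. The regions of Prox1, a homeobox gene of slow fibers, ran from -0.26 to 0.67, and those of Tbx15, a gene of glycolytic fibers, were at -0.88 and -0.35. The median of this list was -0.047 with Sed, 0.08 with Wt and -0.019 with EDL in place of Quad, and -0.030 after input subtraction.

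Genes of glycolysis and glycogen use had a median of -0.31, with 33 of 40 regions below 0 and 2 called lower, beside 11066 of 24152 below 0 and 0.923% called lower over all regions. The median was -0.15 with Sed, -0.11 with Wt and -0.17 after input subtraction, and 2, 0 and 0 regions were called lower. Pygm, muscle glycogen phosphorylase, had 0.53 and 0.41 in Quad and -0.78 and -0.98 in Sol (-1.35 ± 0.12). Gys1, muscle glycogen synthase, had 0.22 and -0.09 in Quad and -0.92 and -1.32 in Sol (-1.18 ± 0.25). Pygm was at -0.30 with Wt and -0.78 after input subtraction, and Gys1 at -1.03 with Sed, -0.40 with Wt and -0.28 after input subtraction. Both genes act on glycogen, the store on which glycolytic fibers draw. Structural genes shared by all fibers, described below, had a still lower median, of -0.49. Genes for fatty acid uptake and oxidation had no called region in 32 and a median of -0.07. At shares of 0.923% lower and 0.919% higher over all regions, a list of 32 regions can easily hold no call. Mitochondrial energy genes had 1 call in 28 regions, which was lower: Cox6a2, the heart and muscle form of a cytochrome oxidase subunit (-1.01), and their median was -0.15. Cox6a2 was at -0.54 with Sed, -0.39 with Wt and -0.27 after input subtraction, and the median of the list at 0.0094, -0.063 and -0.091. Oxidative regulators had a median of -0.21 over 46 regions. They included 1 region higher, near Nrf1 (1.23), a factor for mitochondrial genes, and 1 lower, near Nrip1 (-1.21), a repressor of them. After input subtraction Nrip1 was at 0.46 and Nrf1 at 0.06, and Nrf1 was at 0.20 with Sed and 0.91 with Wt. The 3 regions of Ppargc1a, which encodes PGC1a itself, were at -0.42, -0.25 and -0.36. Excitation and calcium-release genes had a median of -0.26 over 22 regions with 1 call, near Srl, the sarcoplasmic reticulum protein sarcalumenin, whose Sol replicates lay far apart (-0.62 and -1.70), and which was at 0.43 with Wt in place of Quad. The median of this list was -0.12 with Sed, -0.093 with Wt and -0.098 after input subtraction, with no call in any of these.

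**Figure D3:**
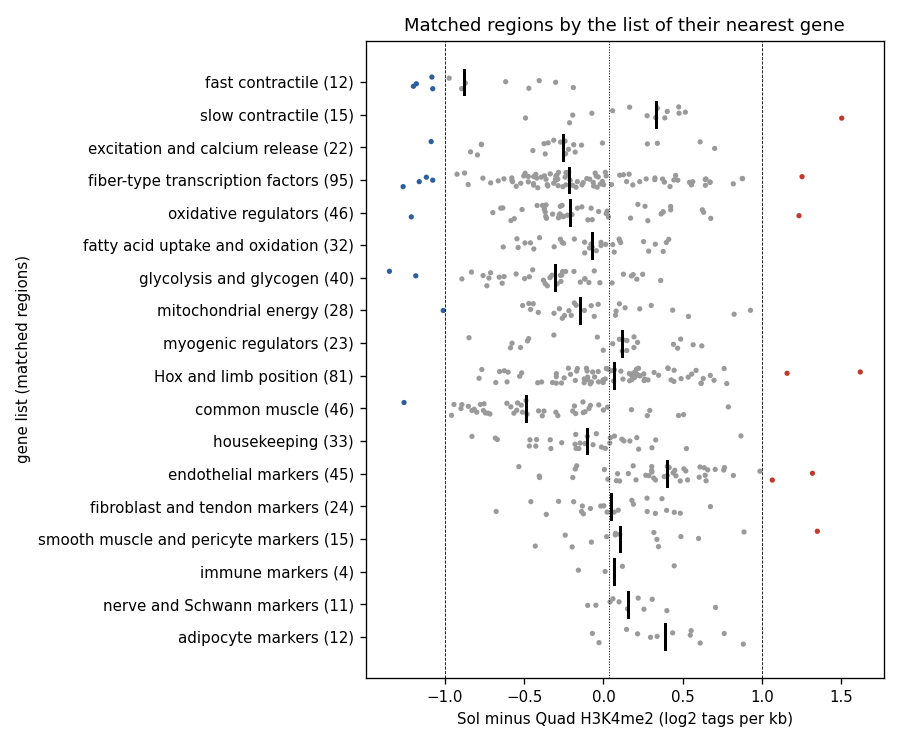
Difference in H3K4me2 between Sol and Quad (x axis, log2 tags per kb) for each matched region (points), by the list its nearest gene belongs to (y axis, with the number of regions). Short bars are list medians, the dotted line is the median of all regions (0.04), the dashed lines mark 2-fold and colored points are called regions; every point of the fast contractile list lies left of 0, and 39 of 45 endothelial points lie right of it.

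Genes that pattern the limb and body axis differed little as a group. Their 81 matched regions had a median of 0.06, with 2 called higher (2.47%, beside 0.919% of all regions) and none lower. These were the Tbx5 region above and an exonic region of Hoxd11, a posterior homeobox gene, at -1.92 and -1.72 in Quad and -0.67 and -0.65 in Sol (1.16 ± 0.10). The input difference at Hoxd11 was small (0.12), but with Sed in place of Quad its value was -0.18. Pitx1, a hindlimb factor, had a region at -0.78. Myogenic regulators had no call among 23 regions and a median of 0.12, and housekeeping genes had none among 33 and a median of -0.10. Structural genes shared by all skeletal muscle fibers, in contrast, had 39 of 46 regions below 0 and a median of -0.49, with 1 call in Sgcd, the delta-sarcoglycan gene (0.06 and 0.10 in Quad, -1.01 and -1.35 in Sol, -1.26 ± 0.17). Sgcd was at -0.63 with Sed, -0.73 with Wt and -0.31 after input subtraction. With Sed, Wt or EDL in place of Quad the median of this list was -0.07 in each case. Each of its 20 genes, Ckm, Acta1, Des and Ttn among them, had a matched region, which shows skeletal muscle in both lists but not which muscle.

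Markers of other cell types that whole muscle contains were examined beside these. Endothelial markers had 39 of 45 regions above 0, beside 13086 of 24152 over all regions, and a median of 0.40. Of the 45 regions 2 were called higher (4.44%, beside 0.919% of all regions). These lay near the genes of von Willebrand factor, Vwf (-2.28 and -1.88 in Quad, -0.72 and -0.80 in Sol, 1.32 ± 0.21), and endomucin, Emcn (1.07 ± 0.17). The summed level of the list was 24.6 and 25.1 in Quad and 31.0 and 31.1 in Sol, so that the groups did not overlap. The median of this list was 0.47 with Sed, 0.51 with Wt and 0.32 with EDL in place of Quad, and 0.06 after input subtraction, where Emcn was at -0.14 and Vwf at 0.37. Adipocyte markers had a median of 0.39 over 12 regions, and their summed level was 8.46 and 8.59 in Quad and 10.2 and 10.6 in Sol. After input subtraction their median was -0.025, with 5 regions above and 7 below 0. Smooth muscle and pericyte markers had a median of 0.10 over 15 regions, with 1 call at the promoter of Myocd, a smooth muscle coactivator (1.35, or -0.098 after input subtraction). Fibroblast and tendon markers had 0.05 over 24 regions, nerve and Schwann markers 0.15 over 11 and immune markers 0.07 over 4. Of the 14 immune genes 4 were in neither list, and 11, including Ptprc, Csf1r and Cd68, had no matched region. The part of vessel and fat cells in the called regions was not tested.

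At the called regions, H3K27ac, a mark of active enhancers measured in separate libraries of Sol and Quad against the same inputs, differed in the same direction. It was called higher in Sol at 1.51% and lower at 2.08% of its own 19463 matched regions. Of the 222 regions with more H3K4me2 in Sol, 37 overlapped a matched H3K27ac region, and acetylation was higher in Sol at 34 of these (median 0.65). Of the 223 regions with less H3K4me2, 102 overlapped one, and acetylation was lower at 95 (median -0.79). Over all 12237 overlapping regions it was lower at 46.1% and had a median of 0.03. At the called-lower regions of Tnnc2 (-0.82), Mef2c (-0.80), Lsp1 (-0.92) and Tnnt3 (-0.78) acetylation was lower too, whereas at that of Tnni2 it was level (0.0031). Most called-higher regions carried no matched H3K27ac region. Dia and EDL share no library with Sol and Quad, and Dia is the more oxidative of these 2. By the same rule 0.33% of 23301 regions were higher and 0.356% lower in Dia than in EDL. H3K4me2 was higher in Dia at 60 of 104 regions called higher in Sol (57.7%, against 47.0% of all), with a median of 0.09, and lower at 51 of 71 regions called lower in Sol (71.8%, against 53.0%), with a median of -0.26. The difference between Sol and Quad itself had medians of 1.14 and -1.14 at the higher and lower calls, which the call rule fixed to be above 1 in size.

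**Figure D4:**
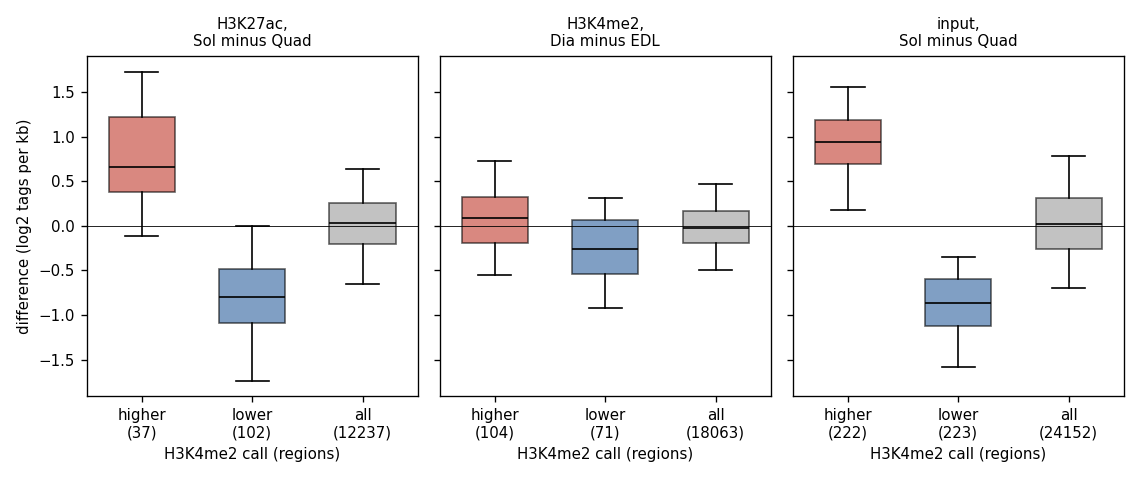
Differences (y axis, log2 tags per kb) in H3K27ac between Sol and Quad, in H3K4me2 between Dia and EDL and in input between Sol and Quad, at regions called higher (red), called lower (blue) and all matched regions (grey) that have the readout, with their number. Boxes show the median and quartiles and whiskers the 5th and 95th percentiles; the input medians, 0.94 and -0.86, are further apart than the H3K27ac medians of 0.65 and -0.79.

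Accessibility, taken from quadriceps only, differed between the called groups. An ATAC-seq peak of Quad lay inside 164 of the 223 regions called lower in Sol (73.5%, 95% Wilson interval 67.4 to 78.9), inside 29 of the 222 called higher (13.1%, 9.25 to 18.1) and inside 68.5% of all. In the central 500 bases alone the shares were 52.0%, 8.56% and 37.4%. In the lowest bin of levels the share was 32.5%, and 22.5% for the central 500 bases. These bins rest on the mean of both muscles, whereas the higher calls were chosen for a low level in Quad. A low share of Quad peaks among higher calls therefore cannot be told apart from that choice. MED1, a Mediator subunit mapped at active enhancers, was rare in both groups: its Quad peaks overlapped 1 region called higher and 4 called lower, as compared with 5.81% of all, and its Sol peaks 3 and 4, as compared with 7.03% of all. In the lowest bin of levels Quad MED1 peaks overlapped 0.397% of regions. No ATAC-seq of Sol was used here.

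In the other muscles and quadriceps sets the called regions lay between Quad and Sol. Each library of these other lists was first shifted so that its median difference from the mean of Sol and Quad was 0. For each region present in a list, its place on the way from Quad to Sol was taken as a percentage. At regions called higher, the median of these percentages was 51.8% in EDL (148 regions), 54.0% in the libraries labelled Wt (135), 62.6% in Dia (121) and 70.0% in Sed (87). At regions called lower the median percentage was 43.7% in EDL (171), 40.2% in Sed (137), 60.6% in Wt (149) and 62.2% in Dia (94). Sed was nearer to Sol than to Quad at 61 of 87 higher regions and at 39 of 137 lower ones. Quadriceps of other wild-type mice was thus on average well inside the interval between Quad and Sol, though the regions had been chosen for a large gap between exactly those libraries. A place between Quad and Sol was favored in advance by that choice. The lists hold different regions, and their levels were normalized separately. Over all the matched regions that each of these lists held, the median level was between 0.092 (EDL) and 0.21 (Dia).

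**Figure D5:**
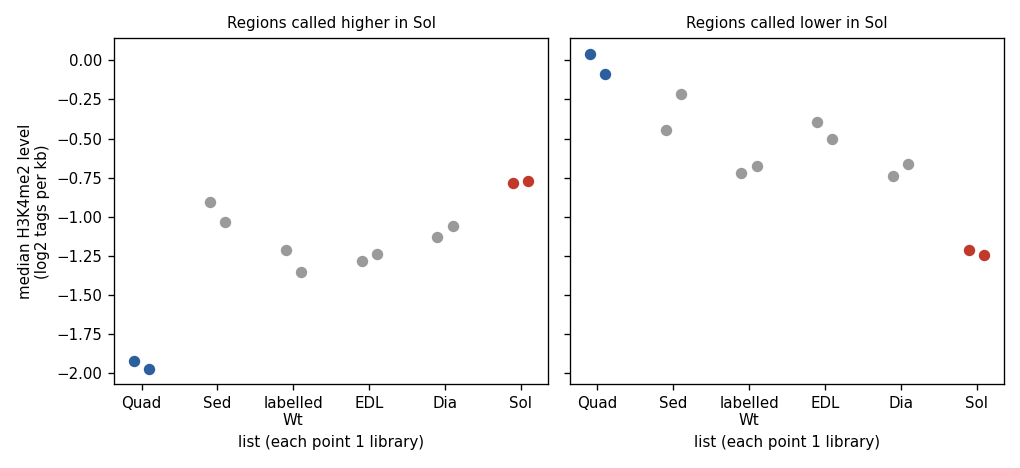
Median H3K4me2 level (y axis, log2 tags per kb) of the regions called higher (left) and lower (right) in Sol in each library (points) of the Quad, Sed, Wt, EDL, Dia and Sol lists (x axis), over the regions each list holds. In both panels the Quad (blue) and Sol (red) libraries form the ends and all others lie between them.

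The base sequence of the called regions was searched for words of muscle transcription factors in the central 500 bases on both strands. The MEF2 word was found in 42 of 223 lower regions (18.8%, 95% Wilson interval 14.2 to 24.5), in 22 of 222 higher regions (9.91%, 6.64 to 14.5) and in 6.33% of all. MEF2 words are rich in A and T, and the called regions were poorer in G and C than the rest, with medians of 47.4% for lower, 50.8% for higher and 53.6% for all regions. When the matched regions were divided into 4 bins by the G and C content of these bases, in the poorest bin, the shares were 21.7% for lower, 21.3% for higher and 15.6% for all, so that the called groups were alike there. In the next bin they were 17.3%, 5.0% and 6.51%, resting on 13 and 3 regions, in the following bin 12.9%, 5.88% and 2.2%, and in the richest bin, which held only 2 lower regions, 0%, 1.89% and 0.708%. The stretches printed above for Sgcd, Mir6923, Hdac9 and Gys1 are examples from the lower group. The AP-1 word TGANTCA was in 20.2% of lower, 12.6% of higher and 11.2% of all regions. In the bin poorest in G and C these shares were 21.7%, 12.0% and 15.9%. In the next bin they were 21.3%, 23.3% and 15.1%, and in the following one 12.9%, 5.88% and 9.62%. By level, the AP-1 word was in 13.6% of regions in the lowest bin and 14.2% in the next. The MEF2 word was in 7.70% and 8.58% of these. The E-box CAGCTG was in 36.8% of lower, 29.3% of higher and 29.7% of all regions. In the same bins of G and C, from the poorest on, its shares were 25.2%, 32.0% and 25.8%, then 42.7%, 31.7% and 34.2%. In the following bin they were 64.5%, 26.5% and 32.3%. The TEAD word GGAATG was in 24.2%, 22.5% and 22.01%, and the NFAT word GGAAA, short enough to lie in most windows, in 83.4%, 73.4% and 79.3%. The nuclear receptor half-site AGGTCA was in 33.6% of lower, 30.6% of higher and 24.1% of all regions, and the longer ERR word TCAAGGTCA, which contains it, in 1, 5 and 209 regions. A match describes letters in a window, and binding was not measured here. Repeats masked in the reference made up 12.8% of the central bases of lower, 10.2% of higher and 10.4% of all regions.

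Called regions were mostly solitary. Of the 223 lower regions 25 had another lower one within 100 kb, in 12 runs, and of the 222 higher regions 12 did, in 6 runs. The longest run was at the fast troponin locus, where 3 lower regions at Tnni2, Lsp1 and Tnnt3 lay within 56.5 kb (chr7:142442318-142498784), with differences of -1.20, -1.23 and -1.08. Other lower pairs were the regions of Mrln, which encodes the calcium-pump inhibitor myoregulin (-1.02 and -1.01), of Tbc1d1, a regulator of glucose transporter traffic (-1.26 and -1.01), of Nfia (-1.19 and -1.09), of E2f3 (-1.16 and -1.03) and of Slc35e1 (-1.37 and -1.34). Near Chrne, the adult acetylcholine receptor subunit (-1.06), and Pld2 (-1.21) a pair spanned 78.7 kb. Higher pairs were found at Asap2 (1.26 and 1.15) and Nckap5 (1.15 and 1.02). After input subtraction 1 region of Asap2 came to -0.22 and 1 of E2f3 to 0.15, and with Wt in place of Quad regions of Nfia and Slc35e1 came to 0.39 and 0.26. Opposite calls side by side were rare, and included Me1, the malic enzyme gene, whose intronic regions 49.6 kb apart were at 1.01 and -1.24.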

How the data were processed

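ChIP-seq of H3K4me2 in Sol and Quad (2 libraries each) was compared, with H3K27ac, MED1, ATAC-seq and input as side readouts. For ChIP-seq the authors used Bowtie for alignment (version 1.2 in the submitters' processing notes, while the study's methods name another release), kept 1 tag per position in HOMER and called histone regions enriched over input across both replicates. The deposited region lists give log2 tag values normalized within each list together with its inputs. They were taken as DESeq2 regularized logs, since the sources used here do not state the transform. The authors' adjusted p-value per region was used as an alternative filter only, and their fold and p columns against input were not otherwise used. MED1 and ATAC-seq peaks, whose deposited column is a tag signal, were used by position only.

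Here regions were matched by reciprocal overlap of at least 50%, divided by width in kb and centred per library with Python 3.11.15, numpy 2.4.6, pandas 2.3.3 and scipy 1.17.1, and drawn with matplotlib 3.10.9. The files' mm10 chromosome names matched GRCm38.p6. Since the lists hold no counts and were normalized apart, no test was run between them, and calls rest on the 2-fold rule and non-overlap. The pairing and call steps were tested on simulated data. Errors are SE of the difference of 2 group means. Wilson intervals cover counting error only, and a spread over 2 libraries is known poorly.

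Named genes were, per direction, those of the 10 called regions furthest apart and up to 5 genes with most called regions, up to 4 members per gene list (called ones first), the myosin genes and Ngdn. Members and lists were chosen with earlier results of these data known. Replicates are separate samples by their labels. Each region carries the authors' nearest gene, which need not be the gene it acts on. The alternatives were another overlap, no width division, quantile normalization, 1.5-fold, filters on level and adjusted p, input subtraction, leaving out each replicate, and other quadriceps sets. EDL in place of Quad was added after seeing the data. A result of 1 named gene is not reported here.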

Additional observations from a re-analysis of the deposited data

How the results depend on the processing

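The counts of regions called in Sol against Quad moved with most choices. They were 222 higher and 223 lower in the main comparison, 49 and 54 at 80% reciprocal overlap (13371 regions matched), 694 and 881 with no division by width, 87 and 347 after quantile normalization, 1892 and 1390 at 1.5-fold, 29 and 119 without the lowest of 4 bins by level, 46 and 68 with adjusted p under 0.001, 157 and 71 after input subtraction, 17 and 132 with Sed and 308 and 76 with Wt in place of Quad. Fewer regions tested account in part for the counts at 80% overlap and under the filters. For the others the cause was not tested. The higher share of calls went from 49.9% to 20.05% after quantile normalization, 19.6% without the lowest bin, 68.9% after input subtraction, 11.4% with Sed and 80.2% with Wt. Leaving out each library in turn gave 272 to 308 higher and 190 to 314 lower calls. The rank correlation of 0.894 became 0.956 with no width division, 0.812 without the lowest bin, 0.844 with adjusted p under 0.001, 0.752 after input subtraction, 0.909 with Sed and 0.915 with Wt, and 0.879 to 0.899 with a library left out.

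Of the 107 named regions 33 changed sign after input subtraction, 6 of 60 with Sed and 10 of 74 with Wt in place of Quad. Of the named regions that were called, 3 of 55, 7 of 25 and 3 of 33 were called again. The called regions that changed sign after input subtraction were the following 11: Myocd (-0.098), Asap2 (-0.22), Mir1936 (0.095), E2f3 (0.15), Nrip1 (0.46), Rsph1 (0.77), 1010001N08Rik (-0.026), Dsg2 (-0.025), Pabpc4l (-0.43), Emcn (-0.14) and Atp2a2 (-0.38). Among called regions, Hoxd11 (-0.18) did so with Sed, and Srl (0.43), Nfia (0.39) and Slc35e1 (0.26) with Wt. Leaving out a library could not change the sign of a called region, because the call rule puts both Sol libraries on 1 side of both Quad libraries. No paired analysis was possible because the calls come from no test and the replicate numbers only name the libraries. Precision was lowest in the lowest bin of levels, where the replicates differed by a median of 0.19, against 0.073 in the highest. The part of depth in this was not tested.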
